A study of Mus musculus with 71 samples.

Results

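The genes described here are mouse genes whose symbol is Zfp followed by a digit and which had a Polycomb peak within 10 kb of a transcription start. They numbered 237 of the 13005 genes that had such a peak in any of the 9 deposited peak tables. They were chosen by name and distance alone, and in each table a gene was represented by its strongest peak. The gene of a peak is the one with the nearest start, as the deposited annotation gives it. All 237 symbols were found in RefSeq, where 234 are protein-coding. In embryonic stem cells (ESC) 73 of 5383 genes in the RING1B and CBX7 ChIP tables were Zfp genes, and 29 of 3885 in the H3K27me3 ChIP table. By CUT&RUN they were 152 of 8687 for RING1B and 45 of 4261 for H3K27me3. In differentiating cells they were 136 of 7874 in the RING1B time course, 52 of 4196 for RING1B at day 8, 32 of 4169 for H3K27me3 at day 8 and 100 of 5956 for RING1B at day 10.

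The study profiled Polycomb proteins in mouse J1 cells, an embryonic stem cell line. Cells with wild-type CBX7 (WT) were compared with cells labelled CBX7-CaPS (CaPS), in which, from the title of the series, PRC1 carries a Polycomb domain otherwise found in committed cells, and with another line labelled CBX7-mCaPS (mCaPS), whose alteration the labels do not spell out. All lines are J1 cells, and the labels do not say whether an altered line is 1 clone. A CBX7 knockout line is not analysed here. ESC were grown on mouse embryonic fibroblast feeders with serum and LIF, and the feeders were removed before differentiation. Neural progenitor cells (NPC) came from suspended aggregates without LIF that received 5 uM retinoic acid from day 4 and were collected at day 6 and day 8. Embryoid bodies (EB) came from hanging drops without retinoic acid and were collected at day 10. ChIP-seq used crosslinked chromatin with Drosophila chromatin added as a spike-in, and CUT&RUN used native nuclei. Both read DNA and not RNA, so the labelled cell types were not checked against expressed markers.

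Zinc finger proteins of the Zfp series are mostly DNA-binding factors. Many carry a KRAB domain, through which they recruit TRIM28 and silence transposons and imprinted regions, and their genes lie in clusters, while others are developmental regulators or, in the Zfp36 family, RNA-binding proteins. Polycomb repressive complex 2 places the histone mark H3K27me3, and the chromodomain of CBX7 reads that mark within canonical Polycomb repressive complex 1 (PRC1). RING1B is the ubiquitin ligase core of both canonical PRC1 and variant PRC1 complexes, which lack a CBX subunit. Polycomb occupancy in ESC typically lies over promoters rich in the dinucleotide CG, and its widest domains lie over developmental regulators.

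The promoters of 6 Zfp genes are shown as examples with a wide peak, a narrow peak or no peak assigned to the gene. They hold 9 to 18 CG, within a range of 0 to 48 over Zfp genes. The sequences are the 250 bases before the RefSeq start (build GRCm38.p6), read 5′ to 3′ on the gene's strand, with each CG in capitals. Zfp503 (chr14:21989602-21989851, minus strand, 13 CG), Zfp536 (chr7:37769753-37770002, minus strand, 16 CG), Zfp467 (chr6:48445091-48445340, minus strand, 15 CG) and Zfp423 (chr8:87959596-87959845, minus strand, 18 CG) lay wholly inside wide RING1B peaks in ESC. Zfp296 (chr7:19577037-19577286, plus strand, 14 CG) had 116 of its 250 bases inside a narrow RING1B peak. Zfp42 (chr8:43307010-43307259, minus strand, 9 CG), the pluripotency marker Rex1, had no peak assigned to it within 10 kb in any table. Peaks assigned to neighbouring genes were not searched.
Zfp503: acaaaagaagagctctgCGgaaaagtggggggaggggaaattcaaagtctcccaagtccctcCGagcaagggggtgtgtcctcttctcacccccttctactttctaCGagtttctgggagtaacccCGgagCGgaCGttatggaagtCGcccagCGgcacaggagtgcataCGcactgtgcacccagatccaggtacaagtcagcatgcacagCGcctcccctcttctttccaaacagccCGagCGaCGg
Zfp536: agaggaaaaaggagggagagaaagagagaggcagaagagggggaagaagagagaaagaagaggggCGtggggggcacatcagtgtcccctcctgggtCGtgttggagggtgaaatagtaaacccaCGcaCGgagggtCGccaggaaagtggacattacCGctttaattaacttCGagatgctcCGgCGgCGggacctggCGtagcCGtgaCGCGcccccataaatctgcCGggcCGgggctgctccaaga
Zfp467: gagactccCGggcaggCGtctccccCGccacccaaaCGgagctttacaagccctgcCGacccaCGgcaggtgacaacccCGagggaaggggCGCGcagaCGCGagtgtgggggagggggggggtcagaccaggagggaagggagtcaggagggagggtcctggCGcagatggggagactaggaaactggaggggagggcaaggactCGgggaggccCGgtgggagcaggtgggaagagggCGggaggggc
Zfp423: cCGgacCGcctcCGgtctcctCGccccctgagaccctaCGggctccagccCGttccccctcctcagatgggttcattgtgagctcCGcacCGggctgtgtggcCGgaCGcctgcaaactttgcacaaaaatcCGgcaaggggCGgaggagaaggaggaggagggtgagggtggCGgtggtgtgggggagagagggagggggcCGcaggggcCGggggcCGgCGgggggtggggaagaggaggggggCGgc
Zfp296: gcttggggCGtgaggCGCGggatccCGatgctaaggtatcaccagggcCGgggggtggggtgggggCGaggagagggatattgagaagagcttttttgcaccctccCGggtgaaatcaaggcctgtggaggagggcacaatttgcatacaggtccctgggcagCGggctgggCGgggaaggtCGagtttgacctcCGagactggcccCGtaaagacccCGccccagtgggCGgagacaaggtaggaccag
Zfp42: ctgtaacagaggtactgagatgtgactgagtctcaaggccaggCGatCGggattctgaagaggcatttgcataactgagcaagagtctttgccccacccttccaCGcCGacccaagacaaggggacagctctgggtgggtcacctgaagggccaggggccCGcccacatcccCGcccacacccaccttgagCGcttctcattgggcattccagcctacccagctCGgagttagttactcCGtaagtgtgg

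Promoters of Zfp genes held a median of 10 CG in these 250 bases (336 genes with a promoter sequence), against 6 over all 27025 genes. Of the 73 Zfp genes with an ESC RING1B ChIP peak, 54 had a promoter sequence, with a median of 13.5 CG and at least 10 CG in 77.8% of them. Zfp genes without that peak had a median of 9 CG, and 49.3% of them reached 10. Over all genes, 73.8% of promoters with the peak and 38.3% of all promoters reached 10 CG. The search counted the letters CG, which read the same on both strands. Genes bound by RING1B thus had more CG in both classes, and the 5 genes with wide peaks and a promoter sequence had a median of 15.

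The deposited values are tags in the peak scaled to 10 M tags per library, and totals ran from 2.01 to 49.13 M tags. In ESC, CBX7 and RING1B were measured in 3 WT and 3 CaPS libraries from experiments 1, 2 and 3, and H3K27me3 ChIP in 2 and 2 from experiments 1 and 5. RING1B at day 8 had 2 and 2 from experiments 3 and 4, and the time course had 2 libraries per stage and genotype from experiments 3 and 5. The RING1B samples of experiment 3 in ESC and at day 8 enter both the time course and the ESC or day-8 data. The WT RING1B library of experiment 2 stood apart: the median over the 73 Zfp genes was 11.3, 73.5 and 15.4 tags per 10 M in WT experiments 1, 2 and 3, against 9.37, 18 and 21.8 in CaPS. It was the highest of the 3 WT libraries at 72 of 73 Zfp genes and at 98.5% of all genes. The 2 CaPS ESC libraries of experiment 2 were also shallow, at 2.63 M tags for CBX7 and 2.23 M for RING1B. The share of tags in peaks differed by genotype as well, from 5.57% to 17.0% in WT and from 2.63% to 7.1% in CaPS for CBX7. In CaPS, peaks on chromosomes 6, 8 and 14 lay below those on other autosomes, with median log2 differences for CBX7 of -1.07, -1.01 and -0.98 against -0.81. No source used here states whether the libraries came from separate cultures, so p-values measure only the spread between these libraries, which may be technical. With at most 3 libraries a group, limma's p-values rest on the trend of that spread with signal over all peaks. In bulk chromatin, fewer cells carrying a mark and less of it per cell cannot be told apart.

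Most Zfp peaks in ESC were narrow. The median width of the 73 strongest peaks was 937 bases (499 to 15992), against 1208 over all 5383 genes, and 13 were at the smallest width of 499 bases. Peaks of 4 kb or more were found at 8 Zfp genes (11% of 73, against 13.1% of all genes). Per kb, the median RING1B level of WT was 35.7 tags per 10 M at Zfp genes and 36.0 at all genes, so the 2 medians nearly coincided. For CBX7 the same medians were 11 and 18.6 tags per 10 M per kb. The 8 widest peaks were also the 8 strongest in WT RING1B: Zfp503, Zfp703, Zfp467, Zfp536, Zfp516, Zfp423, Zfp521 and Zfp800. The narrowest of them was 4352 bases (Zfp423), and the next peak below the 4 kb line was 3145 bases (Zfp608).

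**Figure D1:**
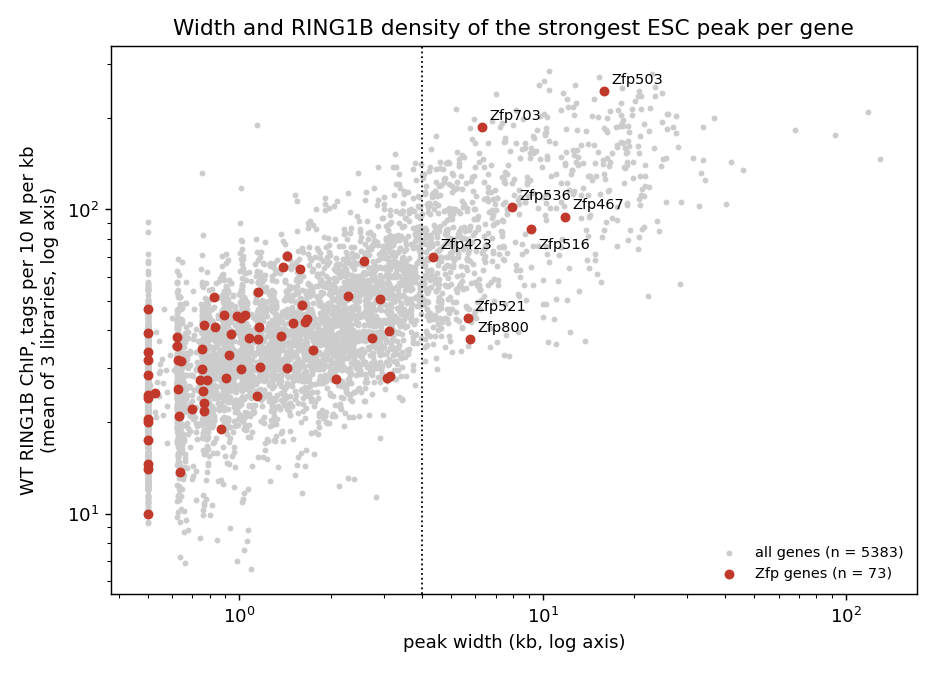
Width (kb) of the strongest ESC RING1B peak of each gene against its mean WT RING1B level per kb over 3 libraries (tags per 10 M per kb), both on log axes, for 73 Zfp genes and all 5383 genes. The 8 labelled Zfp genes lie beyond the dotted 4 kb line, and Zfp503 at 245 tags per 10 M per kb is the highest.

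Zfp genes with a known developmental role made up most of that wide group. A list of developmental Zfp genes had 13 members with an ESC peak, with a median width of 4352 bases and 7 at 4 kb or more. This list and the others used here were chosen with earlier results of these data known. Their shares are thus descriptions and not independent support. A list of other zinc finger families (Zbtb, Zscan, Zkscan, Zfhx, Zic, Gli, Sall, Klf, Prdm, Egr and Ikzf) had 52 with a median of 1948.5 bases, and 6 Hox genes had a median of 13604 bases. The 3 members with a peak from the Zfp36 family of RNA-binding proteins (Zfp36l1, Zfp36l2 and Zfp36l3) had a median of 642 bases. The 3 from a list of Zfp genes linked to ESC identity (Zfp217, Zfp296 and Zfp462) had a median of 629 bases. Of the list of KRAB cofactors, 1 gene had an ESC peak, of 760 bases.

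Not all Zfp peaks lay at starts. Of 73, 44 (60.3%) were centred within 1 kb of a start, against 75.1% of all genes. Exons held 21.9% of Zfp peaks and 14.9% of all peaks. The last of several exons held 11 Zfp peaks (15.1%), at Zfp30, Zfp319, Zfp324, Zfp334, Zfp46, Zfp574, Zfp579, Zfp580, Zfp648, Zfp768 and Zfp775, against 2.42% of all genes. In many Zfp genes a single long last exon encodes the finger array. The shares were 7.24% and 1.24% in the ESC CUT&RUN table, so Zfp genes had the higher share by both methods. The largest of these was at Zfp648 (mm10 chr1:154203670-154206582, 3939 bases from the start), followed in width by Zfp319 (chr8:95327480-95330049, 3186 bases from the start).

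Occupancy was unevenly spread over the genome. Of 397 RefSeq protein-coding Zfp genes, 73 (18.4%) had an ESC RING1B ChIP peak, against 22.2% of 21900 protein-coding genes and 46.4% of 112 genes in the other zinc finger families. Chromosome 7 holds 93 of the 397 Zfp genes and 15 of those with a peak (16.1% of the 93). Chromosome 6 had a peak at 8 of 17, chromosome 18 at 5 of 11, chromosome 17 at 5 of 46 and chromosome 13 at 1 of 37. Shares of all protein-coding genes by chromosome were not computed, so a pattern particular to Zfp genes cannot be told from a general one. The large Zfp groups on chromosomes 13 and 17 were mostly without a RING1B peak in ESC.

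CUT&RUN found more Zfp genes than ChIP. Of the 73 genes with a ChIP peak in ESC, 66 also had a RING1B CUT&RUN peak, and 86 further Zfp genes had a CUT&RUN peak only (56.6% of the 152, against 44.8% of all genes with a CUT&RUN peak). RefSeq shares by CUT&RUN were 37.8% for Zfp genes and 35.6% for all protein-coding genes. At day 8, 52 Zfp genes had a RING1B peak, of which 28 also had one in ESC and 24 did not (46.2%, against 30.4% of all genes at day 8). In EB 100 had a peak, 71 of which also had one in ESC by CUT&RUN and 29 did not, against 23.7% of all EB genes without one. These shares were not tested. The tables were called separately at different depths, so an absent peak may be a missed call at that depth and does not show an absence of RING1B. A peak in each of the 5 RING1B tables was found at 21 Zfp genes, among them all of the 8 wide genes but Zfp521, together with Zfp296, Zfp36l1, Zfp462 and Zfp9. The share of all genes with a peak in each of the 5 was not computed, so this count is a description only.

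The widest Zfp domain covered Zfp503 (chr14:21981120-21997111, centred in the 5′ UTR annotation), which encodes a transcriptional co-repressor of the NET family. Its RING1B ChIP values in WT experiments 1, 2 and 3 were 2397, 6131 and 3242 tags per 10 M, and in CaPS 1097, 2688 and 2701. For CBX7 it held 2360, 6386 and 2055 in WT, against 929, 2987 and 1288 in CaPS. Every CaPS value was below the WT value of the same experiment for both proteins, while the ranges of the 2 genotypes overlapped. Zfp703 (chr8:26975341-26981668, intron), its paralog in the NET family, was narrower but dense, at 187 tags per 10 M per kb. CBX7 there was 825, 2146 and 712 tags per 10 M in WT, against 288, 939 and 295 in CaPS. RING1B there was 765, 1940 and 837 in WT, against 336, 871 and 504 in CaPS. Both proteins were lower in CaPS in 3 of 3 experiments.

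Zfp467 (chr6:48435971-48447869, intron) had 707, 1854 and 820 tags per 10 M of RING1B in WT and 290, 813 and 721 in CaPS. Zfp536 (chr7:37767078-37775007, intergenic, centred at -1290 bases from the start), a neural regulator, had 517, 1419 and 499 in WT and 248, 746 and 432 in CaPS. Zfp516, a factor of brown fat differentiation, had 458, 1286 and 619 in WT and 261, 449 and 577 in CaPS. These 3 genes lay between 86 and 102 tags per 10 M per kb in WT, and all 3 were lower in CaPS in each experiment. Zfp423 (chr8:87959355-87963706, intergenic, centred at -1935 bases from the start) and Zfp521 are paralogs that act in neural and adipose development. Zfp423 had 227, 525 and 162 tags per 10 M of RING1B in WT and 98.4, 267 and 176 in CaPS, and Zfp521 had 202, 365 and 180 in WT and 105, 276 and 228 in CaPS. Zfp800 (chr6:28258311-28264075, intron) had 159, 304 and 184 in WT and 110, 247 and 244 in CaPS. At these 3 genes RING1B was lower in CaPS in experiments 1 and 2 and higher in experiment 3.

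**Figure D2:**
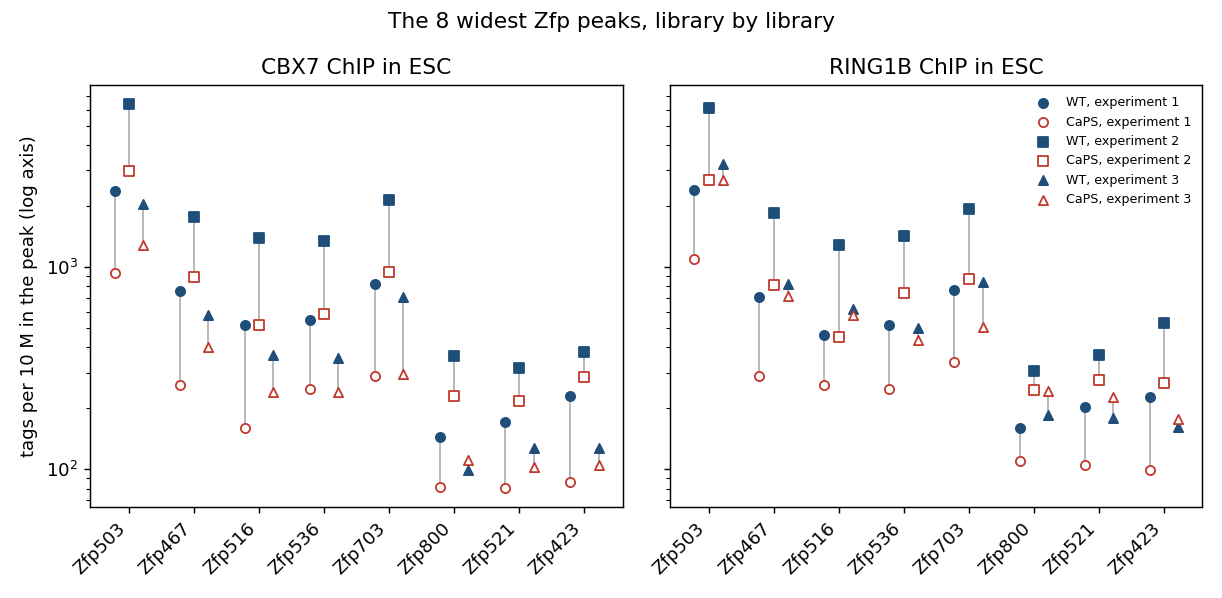
CBX7 and RING1B ChIP levels in ESC (tags per 10 M in the peak, log axis) at the 8 Zfp genes with peaks of 4 kb or more, with 1 point per library and a line joining WT and CaPS of the same experiment. CBX7 was lower in CaPS in all 3 experiments at each gene but Zfp800, where experiment 3 went from 99.3 to 110.

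The CBX7 to RING1B ratio had a lower median over Zfp genes than over all genes. The ratio is the log2 of CBX7 over RING1B, each as tags per 10 M plus 1, in libraries of the same experiment. Antibodies differ, so a value of 0 has no absolute meaning and only the comparison between genes does. Over the 73 Zfp genes the median ratio in WT was -0.61, -1.53 and -0.92 in experiments 1, 2 and 3, and over all genes -0.21, -0.80 and -0.78. The gene means over the 3 experiments had a median of -1.13 for Zfp genes and -0.59 for all genes. Without experiment 2 these medians were -0.80 and -0.49. The Zfp median was the lower one in each experiment.

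The ratio was higher at wide than at narrow Zfp peaks. The 8 wide genes had a median of -0.19, against -0.26 for all 705 wide genes. Zfp genes under 4 kb had a median of -1.26, against -0.71 for all such genes (-0.92 and -0.55 without experiment 2). Under 1 kb the medians were -1.35 and -1.07. Low signals enter here, since 35 of the 73 Zfp genes had under 10 tags per 10 M of RING1B in WT experiment 1, and the added 1 pulls such ratios towards 0. Among genes with at least 10 tags per 10 M of RING1B in every WT library, with no minimum for CBX7, the highest ratios were at Zfp703 (0.01 ± 0.21, SD, n = 3), Zfp467 (-0.16 ± 0.31), Zfp516 (-0.16 ± 0.52) and Zfp9 (-0.16 ± 0.39). The lowest were at Zfp692 (-2.05 ± 1.59), Zfp956 (-1.97 ± 0.77), Zfp707 (-1.91 ± 1.53) and Zfp507 (-1.80 ± 0.59). CBX7 was under 10 tags per 10 M in at least 1 WT library at Zfp692, Zfp707 and Zfp507, and in all 3 at Zfp507. The low group was below the high group in each experiment except in experiment 3, where Zfp707 at -0.51 lay above Zfp516 at -0.75. At Zfp692 the value of -3.88 in experiment 2, the library that stood apart, set much of the mean, and the other experiments gave -1.02 and -1.24.

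Most RING1B peaks at Zfp genes did not overlap an H3K27me3 peak. By ChIP, 18 of 73 Zfp peaks (24.7%, 95% exact binomial interval 15.3 to 36.1) shared at least 1 base with an H3K27me3 peak, against 43.4% of all genes. With at least 50% of the RING1B peak covered, 7 of 73 (9.59%) remained, against 26.3%. Against the H3K27me3 CUT&RUN peaks the overlap was 25 of 73 (34.2%, 23.5 to 46.3), against 55.5%. Peaks under 4 kb gave 15.4% of 65 Zfp genes and 35.5% of all genes by ChIP, so the share of Zfp genes was the lower one among narrow peaks too. RING1B and H3K27me3 both by CUT&RUN overlapped at 26 of 152 Zfp genes (17.1%, 11.5 to 24), against 36.7%. The intervals cover counting over genes only.

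The wide and developmental genes mostly did overlap the mark. All 8 wide Zfp peaks overlapped H3K27me3 by ChIP and by CUT&RUN, as did most of the 705 wide peaks of all genes. Over all genes 2337 of 5383 peaks overlapped by ChIP, and 1660 of these were among the 4678 peaks under 4 kb. By CUT&RUN the same counts were 2987 and 2311. By ChIP peaks 100% of the Zfp800 domain was covered, 92.2% of Zfp703, 89.8% of Zfp503, 81.2% of Zfp536, 44.4% of Zfp467, 31.3% of Zfp516, 25.6% of Zfp423 and 13.6% of Zfp521. Of the 13 developmental Zfp genes 9 overlapped by ChIP and 10 by CUT&RUN, and of the 3 ESC-linked genes 0 overlapped by either method. Among the Zfp36 family, Zfp36l3 was the 1 of 3 that overlapped, by CUT&RUN, with 86.9% covered.

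**Figure D3:**
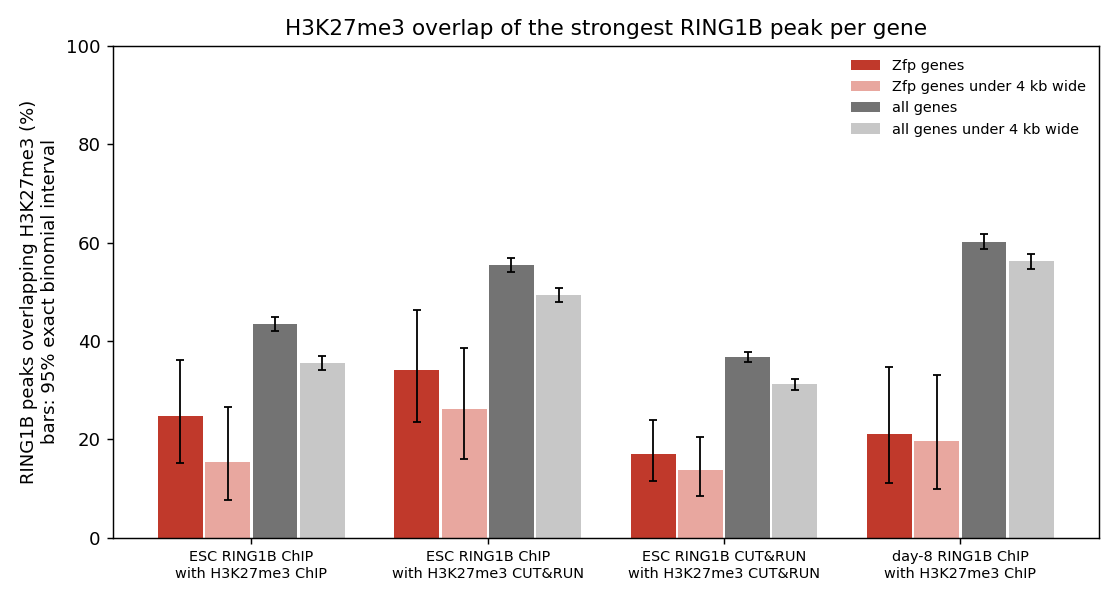
Share (%) of the strongest RING1B peaks that share at least 1 base with an H3K27me3 peak, for Zfp genes, all genes, and those with RING1B peaks under 4 kb, in 4 pairs of tables, with 95% exact binomial intervals. Zfp bars are lower than those of all genes in each pair, with 24.7% against 43.4% in ESC by ChIP and 21.2% against 60.2% at day 8.

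The CBX7 level of CaPS was below that of WT at 22 of 73 Zfp genes in the limma fit with experiment as a block (adjusted p over all peaks under 0.05), and none was higher. The share called lower was 30.1%, below the 47.9% of all genes, and the median log2 difference was -0.58 at Zfp genes and -0.88 at all genes. All 22 were lower in 3 of 3 experiments, with log2 differences from -1.67 to -0.64, whereas after scaling the libraries to the same sum over peaks 0 were lower and 1 was higher (Zfp median 0.33, all genes 0.09). The fall is thus relative to the total tags of each library, and relative to the other peaks it was not seen. edgeR on the recovered tags called 21, and limma without the experiment block called 0. Without experiment 1, 2 or 3 the count was 10, 7 and 22 (20.4%, 26.6% and 47.3% of all genes lower), and without chromosomes 6, 8 and 14 it was 14 of 56. Of the 17 Zfp genes on those chromosomes 8 were called.

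Of the wide domains 7 of 8 fell, against 47.9% of all genes, with a median log2 difference of -0.99. The share among all wide genes is not given here. After scaling to the same sum 6 of the 8 lay above 0, and Zfp800, at 0.61, was the 1 Zfp gene called higher. Zfp503 went from 3600 ± 2420 tags per 10 M (SD, n = 3) in WT to 1730 ± 1100 in CaPS, a log2 difference of -1.04 (SE 0.35, adjusted p = 0.00924). None of the 7 passed without experiment 1 or without experiment 2: Zfp503 was then at -0.89 and -1.01 (adjusted p = 0.348 and 0.406), Zfp703 at -1.23 and -1.39 (0.0609 and 0.0626) and Zfp516 at -1.03 and -1.14 (0.0893 and 0.0804). Zfp703 went from 1230 ± 797 to 507 ± 374, 2.50-fold lower (log2 -1.32, SE 0.29, adjusted p = 5.85e-05). Zfp516 fell by 1.24 (SE 0.28, adjusted p = 7.24e-05), Zfp467 by 1.02 (SE 0.29, adjusted p = 0.00177) and Zfp536 by 0.96 (SE 0.28, adjusted p = 0.00242) on the log2 scale. After scaling to the same sum, Zfp503, Zfp467 and Zfp536 stood at 0.01, 0.03 and 0.09. Zfp800 at -0.44 (SE 0.27, adjusted p = 0.184) did not pass, although without experiment 3 it reached -0.73 (adjusted p = 0.00213). Of the 13 developmental Zfp genes 10 fell (median -1.02), as did 25 of 52 in the other zinc finger families, 6 of 6 Hox genes and 0 of 3 ESC-linked genes. The share in the other families, 48.1%, was near the 47.9% of all genes. Median WT CBX7 levels of these 4 lists were 204, 18.1, 985 and 4.92 tags per 10 M. The part of signal in these counts was not tested. The SD of each group is wide because experiment 2 read higher in both genotypes, which the block removes.

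Several narrow Zfp peaks fell as far. Zfp9 (chr6:118478532-118480206, promoter) had 43.4, 99.4 and 41.0 tags per 10 M of CBX7 in WT and 13.4, 24.7 and 14.8 in CaPS, with no overlap between the genotypes, and was 3.18-fold lower (log2 -1.67, SE 0.32, adjusted p = 3.72e-06). Zfp648 had 78.4, 212 and 71.3 in WT and 23.9, 60.8 and 41.5 in CaPS (log2 -1.41, SE 0.28, adjusted p = 1.12e-05), again without overlap. Zfp36l3 (chrX:53774779-53776530, exon), a Zfp36 family member, had 26.7, 70.1 and 39.6 in WT and 5.97, 34.2 and 11.3 in CaPS (log2 -1.57, SE 0.34, adjusted p = 3.26e-05). Zfp804a (chr2:82051968-82055085, promoter), a gene linked to neurons, had 88.3, 209 and 48.1 in WT and 34.8, 45.6 and 36.5 in CaPS (log2 -1.29, SE 0.28, adjusted p = 5.40e-05). Zfp319 fell by 1.25 and Zfp608 by 1.24 on the log2 scale. Zfp9, Zfp648, Zfp36l3 and Zfp319 passed without any 1 experiment, whereas Zfp804a (-0.85, adjusted p = 0.0742) and Zfp608 (-0.73, adjusted p = 0.123) did not without experiment 2. Zfp9 lies on chromosome 6 and Zfp319 on chromosome 8, where the medians of all peaks were -1.07 and -1.01.

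Of the 22 Zfp genes called for CBX7, 16 (72.7%) overlapped an H3K27me3 ChIP peak and 19 (86.4%) a CUT&RUN peak, close to the 73% and 86.6% of all genes called. Of the 51 not called, 2 (3.92%) overlapped a ChIP peak and 6 (11.8%) a CUT&RUN peak, against 16.2% and 27.1% of all genes not called. The split rests on the fit with the experiment block, without which no Zfp gene was called. Signal moved with this split: the lowest WT CBX7 mean among the 22 was 23 tags per 10 M (Zfp964), the 51 not called reached 202 at most (Zfp800), and the median over all 73 was 9.15. The part of signal in the split was not tested.

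RING1B by ChIP did not pass the test at any of the 73 Zfp genes (limma and edgeR 0 called, 15 at an unadjusted p under 0.05), and 0.167% of all genes passed. The medians were -0.68 for Zfp genes and -0.69 for all genes, and 68 of 73 Zfp genes lay below 0. After scaling to the same sum the medians were 0.05 and 0.06. The experiments differed here: RING1B was lower in CaPS at 8 of 8 wide genes in experiments 1 and 2 and at 5 of 8 in experiment 3, and at 42, 65 and 23 of 65 narrow genes in experiments 1, 2 and 3. Experiment 2 includes the WT library that stood apart. Without experiment 3, 11 Zfp genes (15.1%) and 20% of all genes passed, among them Zfp503 (-1.16), Zfp467 (-1.24), Zfp516 (-1.16), Zfp703 (-1.17) and Zfp423 (-1.08). With all experiments the smallest p-values were at Zfp608 (-1.56, adjusted p = 0.113), Zfp319 (-1.18, adjusted p = 0.152), Zfp703 (-1.02, adjusted p = 0.152) and Zfp804a (-1.20, adjusted p = 0.155).

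The CBX7 to RING1B ratio did not pass the genotype test at any Zfp gene (limma, 3 of 73 at an unadjusted p under 0.05), nor at any gene (0.0% called). edgeR was not run on a ratio. Its median difference was 0.09 at Zfp genes and -0.21 at all genes, and the 3 genes at the unadjusted level were Zfp516 (-0.43), Zfp385b (-0.70) and Zfp703 (-0.30). Without experiment 2, the one with the WT RING1B library apart, 3 passed: Zfp516 (-0.69, adjusted p = 6.62e-05), Zfp503 (-0.31, adjusted p = 0.00122) and Zfp703 (-0.43, adjusted p = 0.0059), while 10.3% of all genes passed in that fit. Without experiment 1 these 3 genes stood at -0.22, -0.16 and -0.29, and without experiment 3 at -0.39, -0.06 and -0.18, each with an adjusted p of 1.0.

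H3K27me3 in ESC did not pass at any of 29 Zfp genes by ChIP (limma and edgeR 0, 1 at an unadjusted p under 0.05, Zfp354b), with 0.0% of all genes called. The medians were -0.04 and -0.06. Zfp503 had 255 and 528 tags per 10 M in WT experiments 1 and 5 and 257 and 378 in CaPS, and Zfp536 had 128 and 237 in WT and 155 and 209 in CaPS. Zfp703, the lowest of the wide genes at -0.53, had 208 and 380 in WT and 184 and 205 in CaPS. It lies on chromosome 8, where the median of all H3K27me3 peaks was -0.43. The genotypes overlapped at Zfp503 and Zfp536, while at Zfp703 both WT libraries lay above both CaPS libraries, with 208 the lowest in WT and 205 the highest in CaPS.

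CUT&RUN in ESC had 1 library per group, so ratios carry a 95% interval of counting error alone and no p-value, and called means 2-fold or more. For RING1B, CaPS over WT was lower at 32 of 152 Zfp genes (27.4% of all genes) and higher at 2 (0.737%), with a median ratio of 0.659 against 0.627. mCaPS over WT was lower at 65 (52.6%) and higher at 2 (0.564%), with medians of 0.538 and 0.488. mCaPS over CaPS was lower at 17 (14.3%) and higher at 9 (5.28%), with medians of 0.833 and 0.778. After scaling to the same sum the counts in either direction were 20 for CaPS and 28 for mCaPS over WT. RING1B was thus lower in both altered lines relative to the total tags of each library.

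All 8 wide Zfp genes kept the order WT, CaPS, mCaPS from high to low. The medians over all genes had the same order, at 20.4, 13.2 and 10.6 tags per 10 M. So did the share of tags in peaks, at 4.61%, 3.01% and 2.07%. The share of all genes with this order was not computed. Zfp503 had 795, 534 and 285 tags per 10 M, a ratio of 0.672 (0.611 to 0.740) for CaPS over WT, 0.359 (0.318 to 0.406) for mCaPS over WT and 0.534 (0.466 to 0.613) for mCaPS over CaPS. Zfp467 had 345, 213 and 138, and Zfp703 had 240, 116 and 84.7. Zfp536 had 179, 107 and 61.3. The mCaPS to CaPS intervals lay below 1 at these 4 genes. At Zfp423, with 83.6, 57.8 and 51.6, the mCaPS to CaPS ratio was 0.893 (0.607 to 1.27), so these 2 lines were not distinguishable there at this depth. Among Zfp genes with tags in both libraries and at least 20 in the higher one, Zfp36l3 had the lowest ratio of CaPS to WT, at 0.237 (0.109 to 0.462) from 37.2 to 8.82 tags per 10 M, and Zfp318 the highest at 2.17 (1.12 to 4.11). Zfp804b had 25.9 tags per 10 M in WT and none in CaPS, where 3 tags would be 2.646. It lay in a stretch of 15 peaks at 0 on chromosome 5 in that CaPS library, while its CaPS ChIP libraries held 9.37, 26.95 and 21.59 tags per 10 M of RING1B. The cause of the stretch was not tested.

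H3K27me3 by CUT&RUN in ESC was 2-fold lower in CaPS at 1 of 45 Zfp genes (0.892% of all genes) and higher at 2 (4.18%), with medians of 1.25 and 1.19. Zfp503 went from 1068 to 1134 tags per 10 M (ratio 1.06), and its mark spanned 37764 bases. The higher genes were Zfp521 (2.07, 1.49 to 2.92) and Zfp959 (2.21), and the lower one was Zfp326 (0.413, 0.196 to 0.795). Zfp800 was at 1.54 and Zfp703 at 0.878. Over the 8 wide genes the ratio ran from 0.878 at Zfp703 to 2.07 at Zfp521.

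RING1B fell at every wide Zfp domain as WT cells became NPC. In WT, Zfp503 had 3238 and 2761 tags per 10 M in ESC of experiments 3 and 5, 642 and 705 at day 6, and 309 and 310 at day 8. In CaPS it had 2695 and 2629, then 800 and 1761, then 553 and 970. The stages did not overlap in WT, and at day 8 both CaPS libraries lay above both WT libraries. The shares of all genes with such separations are not given here. The log2 difference from ESC to day 8 was -3.27 in WT (SE 0.44, adjusted p = 1.9e-11) and -1.86 in CaPS (SE 0.44, adjusted p = 0.000504). The difference between these courses was 1.41 (SE 0.62) and did not pass (adjusted p = 0.532).

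The other wide domains followed the same course. Zfp467 went from 817 and 788 tags per 10 M to 115 and 122 at day 8 in WT, and from 723 and 742 to 133 and 195 in CaPS. Zfp536 went from 511 and 422 to 86.3 and 76.6 in WT, and from 442 and 535 to 162 and 287 in CaPS. Zfp703 went from 836 and 673 to 93.5 and 131 in WT, and from 498 and 539 to 165 and 222 in CaPS. At Zfp536 and Zfp703 both CaPS libraries at day 8 lay above both WT libraries, and at Zfp467 both did by a smaller margin. The medians over all genes at day 8 were also higher in CaPS, at 11.6 and 16.6 tags per 10 M against 9.31 and 12.9 in WT. The share of all genes without overlap is not given here. Over the 8 genes, the day-8 level was 9.54% to 28.6% of that in ESC in WT experiment 3 and 11.2% to 45.2% in experiment 5. In CaPS it was 14.3% to 36.7% and 18.5% to 62.0%. By the test, 8 of 8 were lower at day 6 and at day 8 in WT (median -2.62 at day 8). In CaPS 4 of 8 were lower at day 6 and 8 of 8 at day 8 (median -1.74). Over all genes 20.1% and 30% were lower in WT and 5.96% and 19.5% in CaPS. Scaling to the same sum moved the all-gene median at day 8 in WT from -0.79 to 0.24. How the 8 genes stood under that scaling, and the share among all wide genes, are not given here. The difference between the courses to day 8 passed at 0 of 8 and at 0.254% of all genes. Its median was 0.60 over the 8 genes, with a range from -0.72 at Zfp521 to 1.41, and 0.29 over all genes. The ESC libraries of experiment 3 are also among those in which these peaks were found to be strong, so their fall is not independent of that choice.

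**Figure D4:**
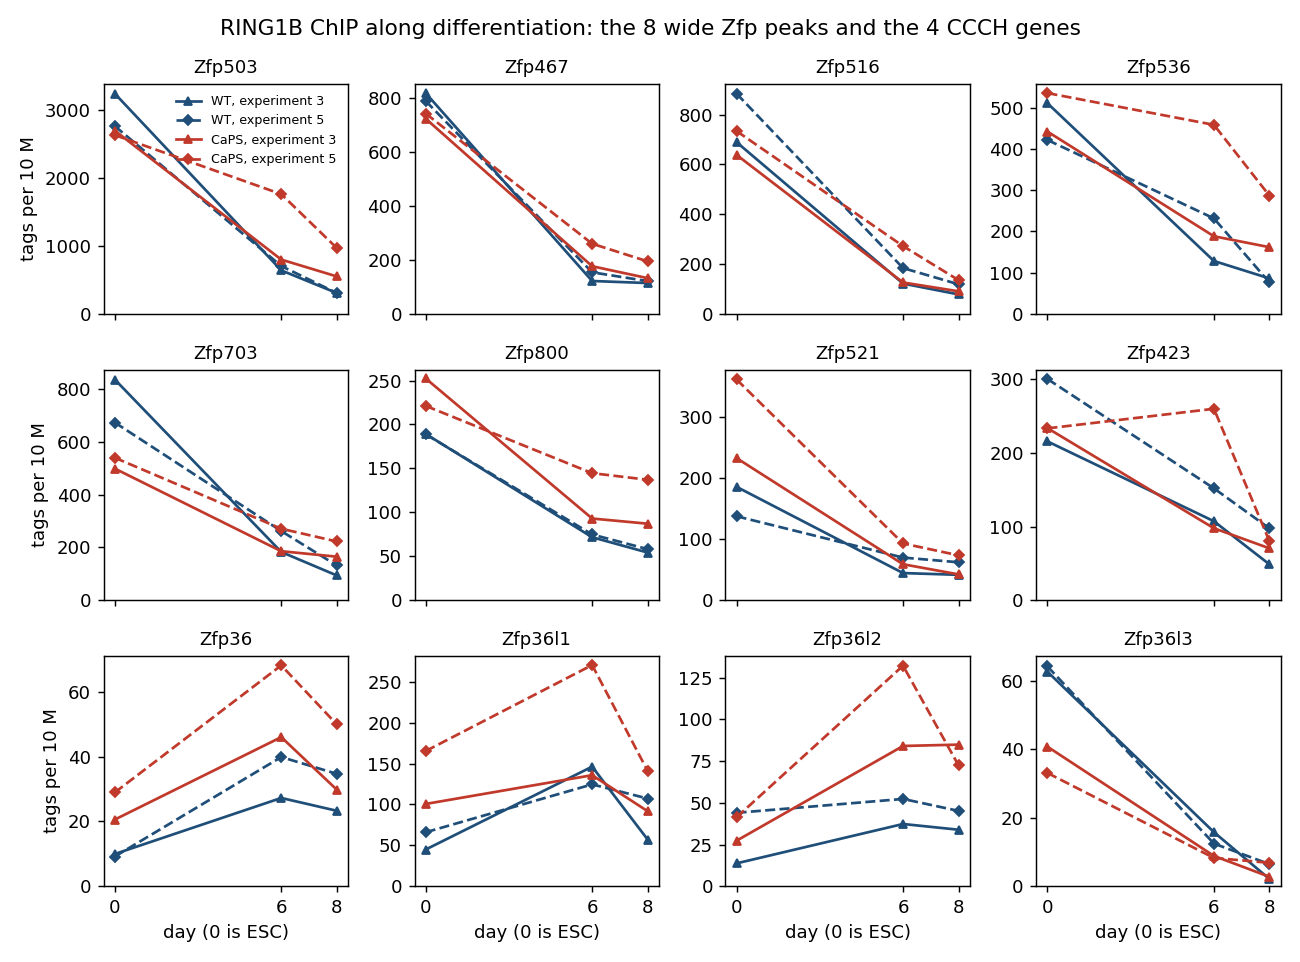
RING1B ChIP (tags per 10 M) against day, with day 0 as ESC, for the 8 wide Zfp genes and the 4 Zfp36 family genes, with 1 line per genotype and experiment and each vertical axis from 0. The wide genes are lower at day 6 than in ESC in each line but that of CaPS experiment 5 at Zfp423. That line goes from 234 to 260. Zfp36 in WT goes from 9.94 and 9.17 to 27.2 and 39.9, and 3 tags make 10.999 in the WT ESC library of experiment 5.

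Across all 136 Zfp genes the course was mixed. In WT, 20 were lower at day 6 (20.1% of all genes) and 5 higher (1.55%), against 9 lower and 17 higher after scaling to the same sum (5.87% and 9.69% of all genes), and the medians were -0.13 for Zfp genes and -0.54 for all genes. At day 8, 23 were lower (30% of all genes) and 1 higher (1.07%), against 10 and 12 after that scaling (8.76% and 8.93%), with medians of -0.53 and -0.79. In CaPS, 7 were lower at day 6 (5.96%) and 6 higher (3.1%), against 6 and 10 after scaling (4.5% and 7.65%). At day 8, 26 were lower (19.5%) and 2 higher (1.96%), against 13 and 6 (7.91% and 6.72%). Scaling to the same sum moved the all-gene medians by over 0.3 in each of these comparisons, to between 0.08 and 0.25, and moved the Zfp medians above 0 as well, to between 0.12 and 0.64. Without the experiment block the counts in either direction were 15 and 4 for day 6 in WT and CaPS (11.7% and 2.77% of all genes) and 17 for day 8 in CaPS (11.5%). Single libraries also moved them, for Zfp genes and for all genes. Day 6 in WT gave 14 without the ESC library of experiment 3 (10.2% of all genes) and 11 without the day-6 library of experiment 5 (6.24%), and day 8 in WT gave 15 without the day-8 library of experiment 3 (19.7%). Day 6 in CaPS gave 3 without the ESC library of experiment 5 (1.82%). Day 8 in CaPS gave 16 without that library (12.7%), and 17 and 12 without the day-8 library of experiment 3 and 5 (10.6% and 9.26%). Of 15 developmental Zfp genes, 8 fell at day 6 and 9 at day 8 in WT, and 4 and 7 in CaPS, with 0 rising. Outside the wide domains the largest drops at day 8 in WT were at Zfp36l3 (-3.74), Zfp775 (-3.22), Zfp30 (-3.12) and Zfp319 (-3.07). Zfp319 had 110 and 86.2 tags per 10 M in WT ESC and 11 and 10.5 at day 8, with no overlap.

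The Zfp36 family, which encodes proteins that bind AU-rich elements of mRNA, moved in both directions. At Zfp36 RING1B in WT was 9.94 and 9.17 tags per 10 M in ESC, 27.2 and 39.9 at day 6 and 23.3 and 34.7 at day 8. This was a rise of 1.69 (SE 0.45, adjusted p = 0.0024) and 1.48 (adjusted p = 0.0064) on the log2 scale. Its signal was low, since in experiment 5 3 tags make 10.999 tags per 10 M in WT ESC and 14.947 at day 6. Over all genes 1.55% were called higher in WT at day 6 and 1.07% at day 8. Zfp36l1 in WT was 44.9 and 66.0 in ESC, 146 and 125 at day 6 (log2 1.29, adjusted p = 0.00391) and 57.1 and 107 at day 8 (0.52, not past the threshold). Both were apart from ESC at day 6, and Zfp36l1 overlapped ESC again at day 8. Zfp36l2 rose in CaPS, from 27.3 and 41.3 to 84.0 and 132 at day 6 (1.62, adjusted p = 0.00216) and 84.9 and 72.4 at day 8 (1.20, adjusted p = 0.0203), and in WT went from 13.7 and 44.0 to 37.3 and 52.3 without passing. Zfp36l3 fell, from 62.6 and 64.2 to 2.12 and 6.45 at day 8 in WT and from 40.7 and 33.1 to 2.76 and 6.85 in CaPS. No genotype difference in the course passed for any of these 4 genes.

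Zfp genes linked to ESC identity or imprinting gave small signals. Zfp296, a pluripotency-associated factor, had 16.9 and 23.8 tags per 10 M in WT ESC, 31 and 69.8 at day 6 (log2 1.17, adjusted p = 0.0309) and 23.3 and 43.5 at day 8. Zfp462 had 28.5 and 60.5, 27.8 and 52.3, and 34.3 and 47.6 at these stages, with no stage apart from another. Zfp57, which keeps imprints through KRAB and TRIM28, had 9.78 and 12.4 in CaPS ESC and 20.8 and 76.4 at day 6 (1.77, adjusted p = 0.0249). The 12.4 of Zfp57 in experiment 5 is what 3 tags make in that CaPS ESC library. Zfp281, a factor of the exit from naive pluripotency, had a CaPS log2 difference of 2.35 at day 6 (adjusted p = 0.0309), but its CaPS ESC library of experiment 5 held no tag, at a depth where 3 tags are 12.4 tags per 10 M. Of the list of 6, 1 rose in WT (1.55% of all genes) and 2 in CaPS (3.1%) at day 6. At day 8 0 passed, against 1.07% of all genes higher in WT and 1.96% in CaPS. The 3 KRAB cofactors in this table were not called at either stage.

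At day 6, RING1B was higher in CaPS than in WT at 4 of 136 Zfp genes and lower at none, and 5.04% of all genes were higher. The medians of 0.45 and 0.50 went to 0.09 and 0.13 when libraries were scaled to the same sum. The 4 were Zfp428 (3.08, adjusted p = 0.00043), Zfp583 (2.87, adjusted p = 0.0384), Zfp39 (2.04, adjusted p = 0.041) and Zfp36l2 (1.24, adjusted p = 0.0467), and edgeR called 0. Zfp36l2 had 37.3 and 52.3 tags per 10 M in WT and 84.0 and 132 in CaPS, with no overlap. The other 3 had at most 7.9 tags per 10 M in WT, below the 14.9 that 3 tags make in the WT library of experiment 5. Without the CaPS or the WT day-6 library of experiment 5 the count was 0, and without those of experiment 3 it was 14 and 17 (14.2% and 11.6% of all genes higher). Leaving out any 1 day-8 library gave 1. The difference between the courses to day 6 passed at 1 gene, Zfp428 (0.483% of all genes higher; edgeR 0; 14 at an unadjusted p under 0.05). It passed at 0 without any 1 of the experiment 5 libraries of ESC or day 6, and at 5, 5 and 11 genes without the CaPS ESC, CaPS day-6 or WT day-6 library of experiment 3 (1.83%, 4.19% and 4.08% of all genes higher). The course to day 8 passed at 0 (limma and edgeR, 9 at an unadjusted p under 0.05), against 0.254% of all genes.

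At day 8 RING1B peaks at Zfp genes were smaller. The median width was 499 bases, the smallest in the table, at which 28 of 52 lay, against 812 over all genes, and 1 peak exceeded 4 kb, that of Zfp503 at 10121 bases (chr14:21982256-21992376). Zfp503 had 312 and 243 tags per 10 M in WT experiments 4 and 3 and 458 and 452 in CaPS. Zfp36l2 had 42.1 and 30 in WT and 96.6 and 76.2 in CaPS, and Zfp703 had 74.6 and 51.8 in WT and 95 and 117 in CaPS. CaPS lay above WT without overlap at these 3 genes. The experiment 3 samples here are the day-8 samples of experiment 3 in the time course, so only those of experiment 4 are new. Other Zfp genes lay below without overlap, such as Zfp804a with 47.8 and 29.99 in WT and 26.25 and 23.29 in CaPS. The share of all genes without overlap was not computed. The test passed at 0 of 52 (limma and edgeR, 7 at an unadjusted p under 0.05, 0.0% of all genes), with Zfp503 at 0.72 (SE 0.82, adjusted p = 0.835). Zfp467 had 129 and 41.6 in WT and 97.7 and 62.4 in CaPS, and Zfp423 had 119 and 27.1 in WT and 63.0 and 37.7 in CaPS. There the CaPS values lay between the WT values. The Zfp median was 0.00 and that of all genes -0.31, and after scaling to the same sum 5 were lower and 4 higher, against 4.29% and 3.98% of all genes. Without the CaPS or WT library of experiment 3, 5 and 10 Zfp genes passed (1.69% and 34.7% of all genes), and without the experiment block 2 (0.667%). The smallest p-values were at Zfp386 (-2.82), Zfp444 (-2.78), Zfp292 (2.40) and Zfp110 (-2.25), each with an adjusted p of 0.459 and with a library at 0.

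The day-8 RING1B domains differed in H3K27me3. Of the 52 RING1B peaks 11 (21.2%, 11.1 to 34.7) overlapped an H3K27me3 peak, against 60.2% of all genes. The day-8 RING1B peaks of Zfp467, Zfp423 and Zfp296 were covered over 100% of their length. That of Zfp503 was covered over 0.672%, against 89.8% of its ESC peak, and those of Zfp703 and Zfp36l2 over 0%. RING1B at Zfp503 was thus called over 10121 bases at day 8 with next to no called H3K27me3 in the authors' pooled day-8 data.

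The day-8 H3K27me3 values are the authors' pooled values, so they have no SD or test. CaPS was 2-fold or more below WT at 20 of 32 Zfp genes (44.8% of all genes) and above at 1 (1.82%), with median ratios of 0.437 and 0.527. After scaling to the same sum the count in either direction was 4. Zfp467 went from 584 to 182 tags per 10 M (0.312), Zfp296 from 385 to 175 (0.455), Zfp46 from 196 to 52.8 (0.269) and Zfp9 from 116 to 32.4 (0.278). Zfp423 went from 261 to 151 (0.581) and Zfp648 from 218 to 172 (0.787). Zfp536 was the 1 gene at 2-fold or more above WT, from 83.9 to 177 (2.11, 1.5 to 2.98), and Zfp503, at 13.4 and 20.1 (1.49, 0.651 to 4.22), was the other with a ratio over 1. The WT pool had 4.47 M tags with 16.4% in peaks and the CaPS pool 32.88 M with 8.2%, and the part of this in the ratios was not tested.

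In day-10 EB, differentiated without retinoic acid, RING1B by CUT&RUN was 2-fold lower in CaPS at 6 of 100 Zfp genes (8.01% of all genes) and higher at 20 (15.7%), with median ratios of 1.27 and 1.12. Zfp503 remained the strongest, at 377 tags per 10 M in WT and 345 in CaPS (0.914, 0.799 to 1.04). Zfp536 (0.774), Zfp703 (0.875), Zfp516 (0.886) and Zfp467 (1.04) had intervals that spanned 1. Zfp462, which acts in chromatin control of pluripotency and neurodevelopment, went from 54.1 to 78.9 (1.46, 1.06 to 2.04). Among genes with at least 20 tags in the library where they were higher, the highest ratios were at Zfp597 (3.0, 1.53 to 7.30), from 8.54 to 25.6, Zfp689 (2.56) and Zfp398 (2.21), and the lowest at Zfp661 (0.458, 0.203 to 0.972). With 1 library a group, these ratios have no replicate check.

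**Figure D5:**
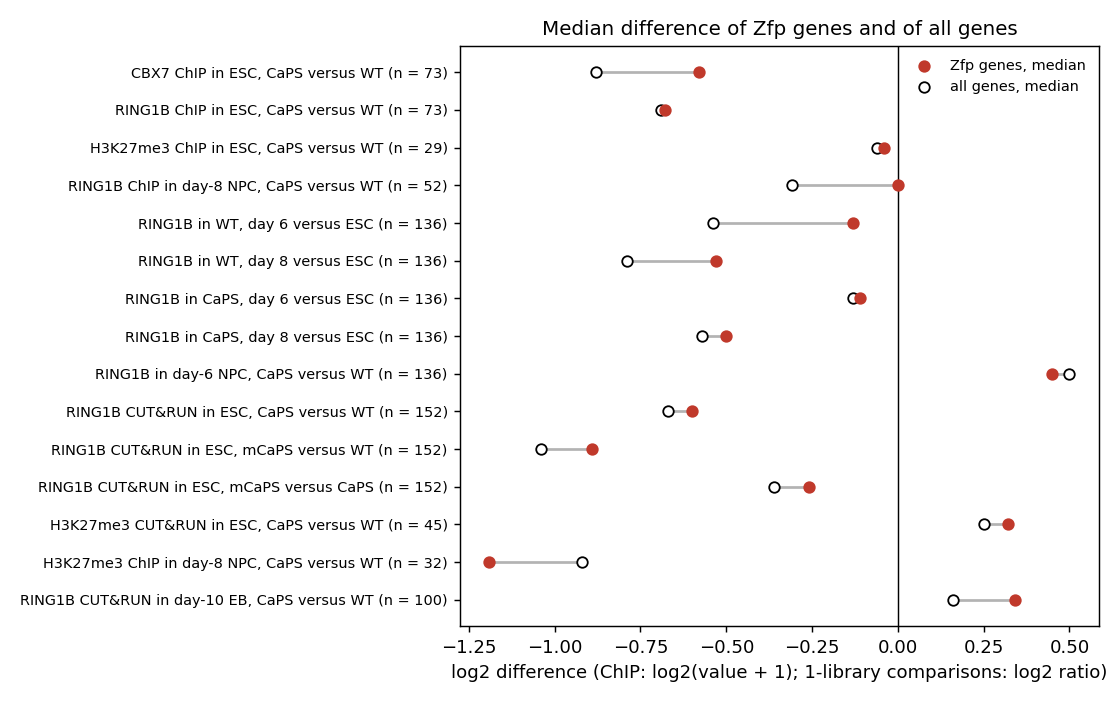
Median log2 difference over Zfp genes (filled) and over all genes (open) in each comparison, on the log2(value + 1) scale for ChIP tests and as the log2 of the median ratio for 1-library comparisons, with the number of Zfp genes as n. The CBX7 medians in ESC were -0.58 and -0.88 and the RING1B medians -0.68 and -0.69.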

How the data were processed

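The deposited tables list peaks in mm10 with their annotation and the signal of each library. Per the file headers, the signal is the tags in a peak scaled to 10 M tags per library, with the total given. Per the submitters' processing notes HOMER 4.10.4, SAMtools 1.9, Bowtie2 2.3.4.3 and cutadapt 1.14 were used, with builds mm10 and dm6. Per the series' design text, peaks were called over input or IgG, replicates were averaged where present and experiments done at the same time were compared. The sources used here do not give whether the spike-in entered the totals. The ESC CBX7 and RING1B tables list the same intervals. Tables were analysed separately, since levels are not on a common scale across them, and 2 columns of values matched no label and were not used.

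Of the peaks within 10 kb of a start, the strongest per gene was kept. Groups were tested with limma 3.58.1 (R 4.3.3, empirical Bayes with trend) on log2(value + 1), which understates changes of low peaks, with the experiment number as a block, over all peaks of a table, with Benjamini-Hochberg adjustment and a threshold of 0.05. The block follows the design text. The deviations of same-numbered libraries correlated at 0.04 to 0.3 for CBX7, -0.02 to 0.23 for ESC RING1B and 0.06 to 0.22 in the time course. All values times their totals gave whole read ends (0.5 tag), so edgeR 4.0.16 (quasi-likelihood) was run on recovered tags as an alternative. With 1 library a group, ratios have exact conditional binomial intervals (95%). The code was tested on simulated data. Other alternatives were pseudocounts of 0.5 and 5, a minimum of 10 tags per 10 M, scaling to the same sum over peaks, peaks within 2 kb, the nearest peak and leaving out libraries.

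The members and 6 further gene lists were chosen with earlier results of these data known. Genes were named by rule: those past the threshold (at most 8 in each direction by adjusted p, or else the 4 smallest p-values), the 8 strongest and the 8 widest, the extreme ratios, in 1-library comparisons the extremes with at least 20 tags, and genes of known role.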

Additional observations from a re-analysis of the deposited data

Results flagged for a closer look

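Zfp428 stood out in the RING1B time course because the change from ESC to day 6 differed between the genotypes. The difference of the log2 changes, CaPS against WT, was 4.09 (SE 0.92, adjusted p = 0.00789 in limma). In WT it had 15.6 and 23.8 tags per 10 M in ESC and 6.81 and 0 at day 6, and in CaPS 13.2 and 6.2 in ESC and 15.5 and 33.0 at day 6. Both WT libraries moved down and both CaPS libraries up. edgeR called no Zfp gene in this comparison, and scaling to the same sum over peaks called 0. The values are low, since 3 tags make 10.999 to 14.947 tags per 10 M in the 4 ESC and day-6 libraries of experiment 5.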

How the results depend on the processing

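Counts are of Zfp genes called in either direction. Without the replicate block on experiment number, CBX7 in ESC gave 0 (22 with it), day-8 RING1B 2 (0), day 6 in WT 15 (25), day 6 in CaPS 4 (13), day 8 in CaPS 17 (28), the day-6 genotype test 1 (4) and the course to day 6 0 (1). Scaling to the same sum gave 1 for CBX7, 1 for ESC H3K27me3, 9 for day-8 RING1B, 1 for the day-6 genotype test, 0 and 1 for the courses to day 6 and day 8, 20 (34) and 28 (67) for CUT&RUN of CaPS and mCaPS over WT, and 4 (21) for day-8 H3K27me3. It turned the CBX7 difference at Zfp423 (0.35), Zfp467 (0.03), Zfp503 (0.01), Zfp521 (0.41), Zfp536 (0.09) and Zfp800 (0.61). Peaks within 2 kb gave 18 for day 8 in CaPS, 0 for the course to day 6, 0 (3) for CUT&RUN H3K27me3, 13 for day-8 H3K27me3 and a median width of 1013 bases, and the nearest peak 925 bases, 2 for the day-6 genotype test and 0 for the course to day 6. edgeR gave 0 for both of these, and pseudocounts of 0.5 and 5 gave 1 and 9 for the first. At 50% coverage the H3K27me3 overlap was 9.59%. These causes were not tested. Without chromosomes 6, 8 and 14, an alternative chosen after seeing the data that leaves fewer genes, the counts were 14 for CBX7, 16 and 15 for day 6 and day 8 in WT and 18 for day 8 in CaPS.

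Leaving out an experiment gave 7 to 22 for CBX7, 0 to 11 for ESC RING1B, 0 to 3 for the ratio test and medians of -1.31 to -0.80 for the WT ratio. Leaving out single libraries, chosen after seeing the data, assumes that a lone library varies like the others, and gave 0 for ESC H3K27me3, 0 to 10 for day-8 RING1B, 11 to 32 and 15 to 20 for day 6 and day 8 in WT, 3 to 16 and 12 to 20 in CaPS, 0 to 17 for the day-6 genotype test, and 0 to 11 and 0 for the courses to day 6 and day 8. Of the named genes' values, 644 kept side and direction, 146 lost and 10 gained the threshold. Depth limits the experiment 5 time course and CaPS experiment 2 libraries, where 3 tags exceed 10 tags per 10 M at ESC and day 6. KRAB content of the proteins was not analysed here.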
